A study of Mus musculus with 12 samples.

Results

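The interferon response genes described here are 31 genes that cells switch on when interferon reaches them, followed in side population cells of 2 mouse muscle sources. They were chosen by name, and a gene counted as measured where a probe set of the array had it as its only gene symbol. That was so for 29 of the 31 genes, among 18193 genes named on the array, and all 29 were expressed above the level below which probe sets were not tested. Isg15 and Ifi44 had no such probe set, so their expression is not analysed here, and they enter only the count of promoter motifs.

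Side population cells are sorted as those that keep little of the dye Hoechst because transporters export it. The study set those of extraocular muscle (EOM), the muscles that move the eye, against those of tibialis anterior (TA), a muscle of the hind limb. Each source was represented by 6 separately isolated preparations, numbered 0, 1, 2, 3, 5 and 6, with 1 array per preparation. The labels name no treatment, infection or genetic change for either source, and do not state the animals' strain, sex or age. Array signals have no read depth, and the number of arrays limits the precision.

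Interferons are secreted proteins that warn cells of infection. Type I interferons signal through the receptor chains Ifnar1 and Ifnar2, which lead to a complex with Stat2 and Irf9 that binds a promoter element called ISRE. Interferon gamma, made by lymphocytes, signals through Ifngr1 and Ifngr2 and acts on genes with an element called GAS. The genes switched on this way sense foreign RNA, block steps of viral growth, attack the vacuoles of intracellular microbes, and damp the signal again.

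3 arrays stood apart from the rest. EOM 1 had a median signal of 87.2, TA 3 one of 69.6 and TA 5 one of 63.2, while the other 9 arrays lay between 31.2 and 43.4. EOM 1 gave the lowest signal of the 6 EOM arrays in 18 of the 29 genes and the highest in 6. Over all 13067 genes tested it was lowest in 36.8% and highest in 42.8%. Its place depended on the level of a gene: among genes with a mean above that of a signal of 200, a level chosen after the data were seen, EOM 1 was under the median of the other EOM arrays in 19 of 22 interferon response genes and in 66.4% of all genes. Among genes at or below that level these numbers were 3 of 7 and 34.4%. The cause was not tested, and results are therefore given with and without EOM 1. Leaving out EOM 1 alone keeps TA 3, the lowest TA array in 14 of the 29 genes. That fit is thus uneven between the groups and is not a corrected estimate.

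With all 12 arrays, 3 of the 29 genes were higher in EOM, 1 was lower and 25 did not pass the threshold (limma, Benjamini-Hochberg adjusted p under 0.05). The genes that rose were Ifi47 and Gbp2, both GTPases of cell-autonomous immunity, and Usp18, a brake on the type I interferon receptor, while Oas2, an oligoadenylate synthetase, fell. Of all genes tested, 4.05% were higher and 6.81% lower in EOM, 10.9% in either direction. At an unadjusted p under 0.05 (limma), 10 of the 29 genes were higher and 1 lower. The same rule gave 1316 higher and 1767 lower of all 13067 genes, the background for every unadjusted count below. The median log2 fold change, EOM minus TA, was 0.48 over the 29 genes and -0.04 over all genes, and 21 of the 29 estimates were above 0. Without EOM 1, 10 of the 29 genes were higher and 1 lower, against 10% and 10.5% of all genes, and the median was 0.62 over the 29 and -0.07 over all. Without EOM 1, TA 3 and TA 5 these counts were 11 and 2, where 10.6% of all genes were higher and 11.2% lower. The median was then 0.56 over the 29 genes and -0.01 over all. The 11 were the 10 genes higher without EOM 1, and Stat2. Of those 10, Ifit1 (1.21) and Xaf1 (0.86) had larger estimates than when only EOM 1 was left out. The others had smaller ones: Irgm1 1.81, Ifi47 1.52, Usp18 1.49, Gbp2 1.29, Parp14 1.17, Mx2 0.75, Ifih1 0.59 and Irf1 0.56.

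**Figure D1:**
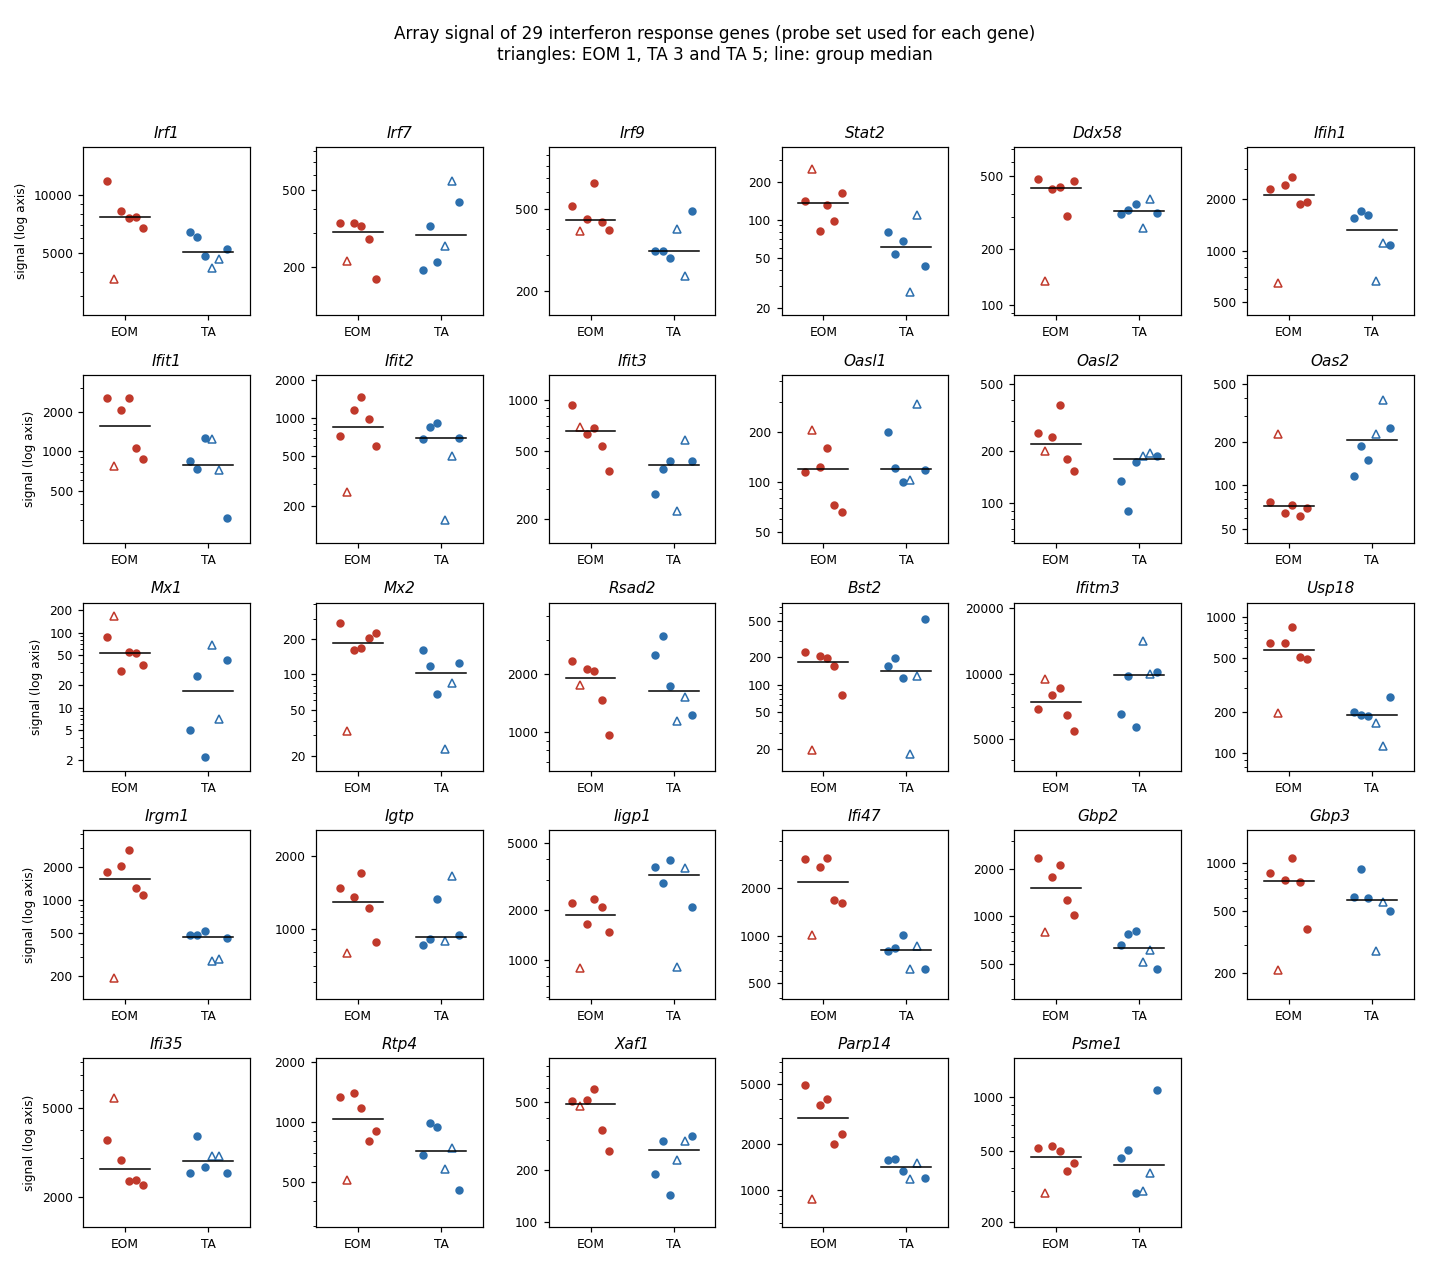
Signal of each of the 29 measured genes on every array, on log axes that differ between panels, with EOM left of TA in each panel. Triangles mark EOM 1, TA 3 and TA 5 and lines the group medians. In Usp18, Irgm1, Ifih1, Irf1 and Parp14 the other 5 EOM arrays lie above all TA arrays and EOM 1 lies among or below them; in Oas2 the other 5 EOM arrays lie below all TA arrays.

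The immunity-related GTPases and guanylate-binding proteins, which gather on the vacuoles that shelter microbes inside a cell, held 2 of the 3 genes that rose. Ifi47, an immunity-related GTPase, had signals of 1004, 2202 and 3098 (lowest, median and highest) in EOM, against 611, 816 and 1013 in TA. The lowest EOM signal was that of EOM 1, and the 5 other EOM arrays lay above every TA array. Its log2 fold change was 1.37 ± 0.29 (SE, limma adjusted p = 0.00492). Without EOM 1 the log2 fold change was 1.57 (limma adjusted p = 8.34e-05). Gbp2, a guanylate-binding protein, was at 796, 1524 and 2347 in EOM, against 460, 635 and 803 in TA. Here too EOM 1 was the lowest EOM array and the only one among the TA signals. The log2 fold change of Gbp2 was 1.19 ± 0.29 (SE, limma adjusted p = 0.0121), and 1.36 without EOM 1 (limma adjusted p = 0.000557). That probe set carries the suffix that marks probes able to bind related transcripts. The other probe set of Gbp2 was at 0.74 (limma adjusted p = 0.416), and the mean of both did not pass, at 0.97 (limma adjusted p = 0.0942).

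Irgm1, a regulatory member of the same GTPases, had the largest estimate of all 29 genes and did not pass with all arrays. Its signals were 192, 1544 and 2873 in EOM (lowest, median and highest), against 279, 463 and 518 in TA. On 5 EOM arrays Irgm1 lay between 1113 and 2873, above every TA array, and on EOM 1 it lay below every TA array. The log2 fold change was 1.54 ± 0.47 (SE, limma adjusted p = 0.0519). Without EOM 1 it was 2.05 ± 0.26 (SE, limma adjusted p = 1.57e-05), the smallest adjusted p of the 29 genes in that fit.

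The remaining 3 of these 6 GTPases did not pass in either fit. Igtp, another regulatory GTPase, was at 790, 1285 and 1690 in EOM and at 857, 923 and 1647 in TA, a log2 fold change of 0.16 with a 95% confidence interval of -0.38 to 0.71. Gbp3 was at 209.5, 773 and 1082 in EOM and at 278, 586 and 918 in TA, a log2 fold change of 0.13 with an interval of -0.65 to 0.91. In both genes EOM 1 was the lowest EOM array, and the groups overlapped. Iigp1, an effector GTPase of the family, pointed the other way, at 897, 1860 and 2321 in EOM and 906, 3232 and 3981 in TA. Its log2 fold change was -0.60 with an interval of -1.34 to 0.14 (limma adjusted p = 0.383), and it passed without EOM 1, TA 3 and TA 5 (-0.67, limma adjusted p = 0.0348). The other tested probe set of Iigp1 was at 0.024 (limma adjusted p = 0.985), and the mean of both at -0.29. Whether the fold changes of these GTPases differ from one another was not tested.

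The promoter sequences of these GTPases and of Ifit1 are shown because members of 1 family differed in their estimates. Each window runs from 250 bases before to 50 after a RefSeq start site of build GRCm38.p6, read 5′ to 3′ on the strand of the gene. Capitals mark the core of an ISRE, which is GAAA, any 2 bases (NN) and GAAA again, or on the other strand TTTC, NN and TTTC, with overlapping copies run together. The windows are chr11:48871371-48871670 on the minus strand for Irgm1, chr11:58199306-58199605 on the plus strand for Igtp and chr11:49076337-49076636 on the plus strand for Ifi47. For Gbp2 the window is chr3:142620413-142620712, for Gbp3 chr3:142559794-142560093 (the first of 2 start sites) and for Ifit1 chr19:34640639-34640938, all on the plus strand.
Irgm1: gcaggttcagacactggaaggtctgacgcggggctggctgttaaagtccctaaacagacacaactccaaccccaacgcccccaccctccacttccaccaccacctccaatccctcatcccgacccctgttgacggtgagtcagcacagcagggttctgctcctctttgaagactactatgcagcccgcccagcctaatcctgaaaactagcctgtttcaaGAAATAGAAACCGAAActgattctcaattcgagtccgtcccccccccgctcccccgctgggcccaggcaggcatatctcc
Igtp: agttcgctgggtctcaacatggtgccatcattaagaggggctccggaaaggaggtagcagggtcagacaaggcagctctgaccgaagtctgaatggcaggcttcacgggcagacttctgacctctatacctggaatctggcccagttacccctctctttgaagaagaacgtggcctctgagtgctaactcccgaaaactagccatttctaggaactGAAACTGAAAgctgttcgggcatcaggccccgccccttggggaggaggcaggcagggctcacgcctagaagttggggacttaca
Ifi47: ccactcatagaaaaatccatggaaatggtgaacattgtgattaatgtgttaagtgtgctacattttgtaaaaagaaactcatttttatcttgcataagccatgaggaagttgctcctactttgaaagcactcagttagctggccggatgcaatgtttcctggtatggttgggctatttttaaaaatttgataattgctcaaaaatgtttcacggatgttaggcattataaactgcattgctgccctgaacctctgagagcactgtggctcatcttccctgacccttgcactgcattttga
Gbp2: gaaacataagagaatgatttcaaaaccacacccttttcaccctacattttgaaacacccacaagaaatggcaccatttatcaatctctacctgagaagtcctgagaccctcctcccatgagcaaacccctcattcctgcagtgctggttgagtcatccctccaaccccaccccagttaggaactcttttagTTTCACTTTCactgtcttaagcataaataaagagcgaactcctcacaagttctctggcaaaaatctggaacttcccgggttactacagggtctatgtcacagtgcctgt
Gbp3: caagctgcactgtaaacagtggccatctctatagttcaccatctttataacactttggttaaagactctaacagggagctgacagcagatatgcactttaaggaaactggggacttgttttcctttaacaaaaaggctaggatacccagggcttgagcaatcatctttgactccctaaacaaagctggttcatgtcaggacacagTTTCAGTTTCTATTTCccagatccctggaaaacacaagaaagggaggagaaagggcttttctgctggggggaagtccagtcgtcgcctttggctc
Ifit1: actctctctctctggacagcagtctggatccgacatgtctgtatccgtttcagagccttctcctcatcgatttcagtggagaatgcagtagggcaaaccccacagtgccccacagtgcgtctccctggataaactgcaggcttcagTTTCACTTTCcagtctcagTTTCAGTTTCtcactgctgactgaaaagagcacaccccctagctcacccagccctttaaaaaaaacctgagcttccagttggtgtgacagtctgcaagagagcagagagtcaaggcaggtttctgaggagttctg
Irgm1 and Gbp3 each held 2 overlapping copies, Ifit1 held 2 separate copies, Igtp and Gbp2 held 1, and the Ifi47 window held none. The window of the second Gbp3 start site, not shown, held none either, and no window was found for Iigp1. Counted from the start site, the first base of the match (of the first, where there were 2) lay at -30 in Irgm1, -34 in Igtp, -59 in Gbp2, -45 in Gbp3 and -104 in Ifit1.

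RefSeq promoter windows were found for 24 of the 31 genes, 28 windows in all. The ISRE core, on either strand, was present in 14 of these 28 windows and in 3.44% of all 32851 windows of the same length. The genes with a match were Stat2, Ddx58, Ifih1, Ifit1, Ifit3, Rsad2, Bst2, Ifitm3, Isg15, Irgm1, Igtp, Gbp2, Gbp3 and Psme1. The GAS letters TTCNNNGAA, which read the same on both strands, were present in 6 windows (Irf1, Ifit2, Bst2, Ifitm3, Igtp and Ifi35), against 8.3% of all windows. In Bst2 and Ifitm3 the GAS match overlapped an ISRE match. A match gives letters only: of the 2 genes with windows that rose with all arrays, Gbp2 held the ISRE core and Ifi47 held neither motif, while Igtp held both.

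Usp18 was the third gene that rose. It removes the ubiquitin-like protein ISG15 from its targets and binds Ifnar2, which dampens the response to type I interferon. Usp18 signals were 198, 576 and 852 in EOM (lowest, median and highest), against 114, 190.5 and 261 in TA. EOM 1 gave the 198, and the 5 other EOM arrays, at 491 or more, lay above every TA array. The log2 fold change of Usp18 was 1.41 ± 0.31 (SE, limma adjusted p = 0.00711), and 1.67 without EOM 1 (limma adjusted p = 4.66e-05). None of the 3 genes that rose passed when each array was centred on its median, a scaling under which the adjusted p was 0.0908 for Usp18, 0.0639 for Ifi47 and 0.102 for Gbp2.

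The RNA-binding effectors held the gene that fell. Oas2 makes the oligoadenylate that activates RNase L, which degrades RNA in infected cells. Its signals were 61.5, 71.7 and 228 in EOM (lowest, median and highest), against 116, 206 and 386 in TA. The highest EOM signal was that of EOM 1, and the 5 other EOM arrays, at 61.5 to 76.9, lay below every TA array. The log2 fold change of Oas2 was -1.12 ± 0.33 (SE, limma adjusted p = 0.0464). Without EOM 1 it was at -1.37 (limma adjusted p = 0.00159). The call of Oas2 was lost in 15 of 23 alternatives, with adjusted p up to 0.114 (limma), among them leaving out any single array other than EOM 1 and TA 0; its direction was the same in all 23.

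None of the 3 Ifit genes, whose products bind viral RNA and hinder its translation, passed with all arrays (limma, 2 at an unadjusted p under 0.05), and all 3 estimates were above 0. Ifit1 was at 775, 1561 and 2536 in EOM, against 308, 788 and 1262 in TA. EOM 0, EOM 2 and EOM 3 lay above every TA array, at 2066 or more, and EOM 1, EOM 5 and EOM 6 lay among them. The log2 fold change of Ifit1 was 0.90 ± 0.38 (SE, limma adjusted p = 0.184), and it passed without EOM 1 (1.08, limma adjusted p = 0.0420). Ifit3 was at 384, 659 and 937 in EOM, against 222, 415 and 585 in TA, a log2 fold change of 0.71 with a 95% confidence interval of 0.13 to 1.29 (limma adjusted p = 0.141). Ifit2 was at 260.1, 855 and 1474 in EOM, against 157, 692 and 914 in TA, at 0.44 with an interval of -0.46 to 1.34. For Ifit2 the low signals came from EOM 1 and TA 3. The 3 genes neighbour each other on chromosome 19.

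The oligoadenylate synthetase-like genes, relatives of Oas2, went in different directions without passing. Oasl2 was at 154, 223 and 376 in EOM, against 89.3, 181 and 195 in TA, a log2 fold change of 0.49 (95% confidence interval -0.08 to 1.06). Oasl1, known in mice to hold back the translation of Irf7, was at 66.0, 119 and 203 in EOM, against 100.1, 119.0 and 292 in TA, at -0.28 (interval -0.96 to 0.39).

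The RNA sensors did not pass with all arrays (limma, 0 of 2 at an unadjusted p under 0.05). Ifih1, the cytosolic sensor MDA5, had signals of 644, 2110 and 2704 in EOM, against 662, 1329 and 1716 in TA. On 5 EOM arrays it was at 1883 or more, above every TA array, and on EOM 1 it was below every TA array. For Ifih1 the log2 fold change was 0.56 ± 0.34 (SE, limma adjusted p = 0.411), and 0.85 ± 0.24 without EOM 1 (SE, limma adjusted p = 0.0204). Ddx58, the sensor RIG-I, was at 135, 430 and 481 in EOM, against 260.0, 322 and 374 in TA. Ddx58 had a log2 fold change of 0.11 (95% confidence interval -0.50 to 0.71) and 0.36 without EOM 1 (limma adjusted p = 0.257), passing in neither fit. Its other tested probe set was at 0.07.

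Among the signalling factors no gene passed with all arrays, where 1 of 4 had an unadjusted p under 0.05 (limma). Irf1, a transcription factor that interferon gamma induces, had signals of 3695, 7673 and 11760.0 in EOM, against 4226, 5053 and 6406 in TA. EOM 1 was below every TA array, and the 5 other EOM arrays, at 6724 or more, were above them all. The log2 fold change of Irf1 was 0.48 ± 0.27 (SE, limma adjusted p = 0.370), and 0.67 ± 0.20 without EOM 1 (SE, limma adjusted p = 0.0315). Stat2, a subunit of the complex that binds the ISRE, was at 81.7, 135 and 252 in EOM, against 26.8, 60.8 and 109 in TA. EOM 1 was the highest array here. Stat2 was at 1.02 ± 0.32 (SE, limma adjusted p = 0.0602), and at 0.85 (limma adjusted p = 0.0595) without EOM 1; its other tested probe set was at 0.23, and the mean of both at 0.62.

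Irf9, the DNA-binding subunit of that complex, was at 390.2, 438 and 660.1 in EOM, against 236, 311 and 484 in TA, a log2 fold change of 0.48 (95% confidence interval -0.03 to 0.98). Irf7, which amplifies type I interferon production, was at 173, 302 and 337 in EOM, against 194, 292 and 557 in TA, a log2 fold change of -0.18 (interval -0.79 to 0.43). In Irf7 the EOM signals lay within or below the range of TA.

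The Mx proteins and the membrane-level restriction factors gave 0 calls with all arrays, where 1 of 5 had an unadjusted p under 0.05 (limma). Mx1 and Mx2 are dynamin-like GTPases that block viruses, and the RefSeq table of build GRCm38.p6 lists both as transcribed pseudogenes. Mx2 was at 32.9, 188 and 276 in EOM, against 22.8, 102 and 164 in TA, with EOM 1 and TA 3 as the lowest arrays. For Mx2 the log2 fold change was 0.75 ± 0.43 (SE, limma adjusted p = 0.376), and it passed without EOM 1 (1.11, limma adjusted p = 0.0283). Mx1 was at 30.8, 54.2 and 168 in EOM, against 2.2, 16.8 and 68.2 in TA, a log2 fold change of 1.16 ± 0.45 (SE, limma adjusted p = 0.139). These signals are low, and the highest in EOM was that of EOM 1.

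Of the restriction factors, Rsad2 (viperin, an enzyme that makes a chain-terminating nucleotide) was at 962, 1916 and 2339 in EOM, against 1136, 1634 and 3142 in TA, a log2 fold change of -0.03 (95% confidence interval -0.66 to 0.59). Further probe sets of Rsad2 were at -0.86 (limma adjusted p = 0.103) and 0.42 (limma adjusted p = 0.712). Bst2 (tetherin, which holds budding virus at the cell surface) was at 19.5, 178 and 226 in EOM, against 17.7, 141 and 524 in TA, at -0.15 (interval -1.34 to 1.03). Bst2 had the widest interval of the 29 genes, with EOM 1 and TA 3 at the low end and TA 6 at the high end. Ifitm3, which blocks the entry of viruses, was at 5448, 7397 and 9480.1 in EOM, against 5634, 9854 and 14183 in TA, at -0.29 (interval -0.86 to 0.28).

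The remaining members have more varied roles, and none passed with all arrays, where 2 of 5 had an unadjusted p under 0.05 (limma). Parp14, an ADP-ribosyltransferase, was at 871, 2998 and 4938 in EOM, against 1181, 1414 and 1587 in TA. Its signal was 2017 or more on 5 EOM arrays, above every TA array, and on EOM 1 it was below them all. Parp14 had a log2 fold change of 0.89 ± 0.34 (SE, limma adjusted p = 0.136), and of 1.20 ± 0.23 without EOM 1 (SE, limma adjusted p = 0.00131). Its other probe set, with signals of 29.3 to 233 in EOM and 42.2 to 183 in TA, was at -0.70 (limma adjusted p = 0.429), and the mean of both was at 0.10.

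Xaf1, a partner of an inhibitor of apoptosis, was at 257, 487.5 and 594 in EOM, against 145, 262 and 315 in TA. Xaf1 had a log2 fold change of 0.82 ± 0.27 (SE, limma adjusted p = 0.0735), and it passed without EOM 1 (0.80, limma adjusted p = 0.0453). EOM 1 was not the lowest array for Xaf1, at 470.4. Its other tested probe set was at -0.17 (limma adjusted p = 0.911), and the mean of both was at 0.33 (limma adjusted p = 0.592). Rtp4, a membrane protein of the receptor transporter family, was at 511, 1039 and 1393 in EOM, against 459, 712 and 991 in TA (log2 fold change 0.44, 95% confidence interval -0.16 to 1.04). A second probe set of Rtp4 was at 0.60 (limma adjusted p = 0.377).

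Ifi35, a cytosolic protein that interferon induces, was at 2272, 2671 and 5558 in EOM, against 2561, 2896 and 3751 in TA (log2 fold change 0.04, 95% confidence interval -0.50 to 0.58). EOM 1 held its highest signal. The 2 other tested probe sets of Ifi35 were at 0.64 (interval 0.12 to 1.16, limma adjusted p = 0.140) and at -0.19 (limma adjusted p = 0.913). Psme1, a subunit of the proteasome activator PA28, was at 291, 463 and 532 in EOM, against 293, 419 and 1089 in TA (log2 fold change -0.06, interval -0.70 to 0.58). TA 6 alone held the highest value of Psme1, and the other TA arrays overlapped those of EOM.

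**Figure D2:**
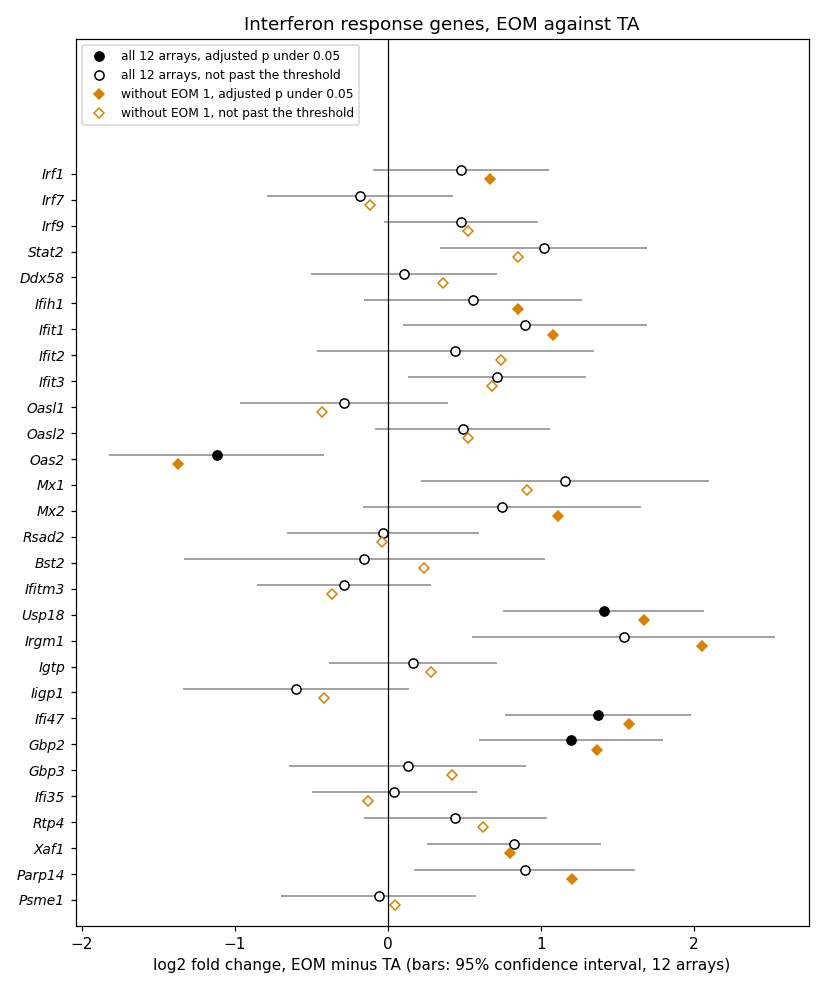
Log2 fold change, EOM minus TA, of the 29 genes in the order of their roles, with all 12 arrays (circles, bars for the 95% confidence interval) and without EOM 1 (diamonds). Filled symbols passed the threshold: Oas2, Usp18, Ifi47 and Gbp2 with all arrays, and without EOM 1 also Irf1, Ifih1, Ifit1, Mx2, Irgm1, Xaf1 and Parp14.

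With all arrays no interferon response gene separated the groups without overlap, as against 2.33% of all tested genes that were higher and 4.80% that were lower. When EOM 1 was set aside, the remaining 5 EOM arrays lay above all TA arrays in 7 genes (Irf1, Ifih1, Usp18, Irgm1, Ifi47, Gbp2 and Parp14) and below them in 1, Oas2. Of all tested genes 7.49% were separated upwards in this way and 7.65% downwards.

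Single arrays differed within EOM. The mean log2 level of the 29 genes, taken for each gene relative to its mean over the 12 arrays, was 0.60 on EOM 0, 0.41 on EOM 2 and 0.61 on EOM 3. It was 0.11 on EOM 5, -0.09 on EOM 6 and -0.36 on EOM 1. The TA arrays lay between -0.22 and -0.04, apart from TA 3 at -0.60. By group the level averaged 0.21 ± 0.39 in EOM and -0.21 ± 0.20 in TA (SD, n = 6 each). EOM 3 held the highest EOM signal in 12 of the 29 genes and EOM 0 in 9, where over all genes they were highest in 11.3% and 10.6%. EOM 5 and EOM 6 were each highest in 0 of the 29, where over all genes they were highest in 15.6% and 11.7%. Among the TA arrays, TA 5 was highest in 8 of the 29 genes and in 20.7% of all genes, and TA 6 in 5 and 18.3%. TA 1 and TA 2 were highest in 6 each, against 10.3% and 10.8% of all genes. TA 3 was lowest in 14 of the 29 and in 24.8% of all genes. These are levels of chosen genes on single arrays and carry no test.

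**Figure D3:**
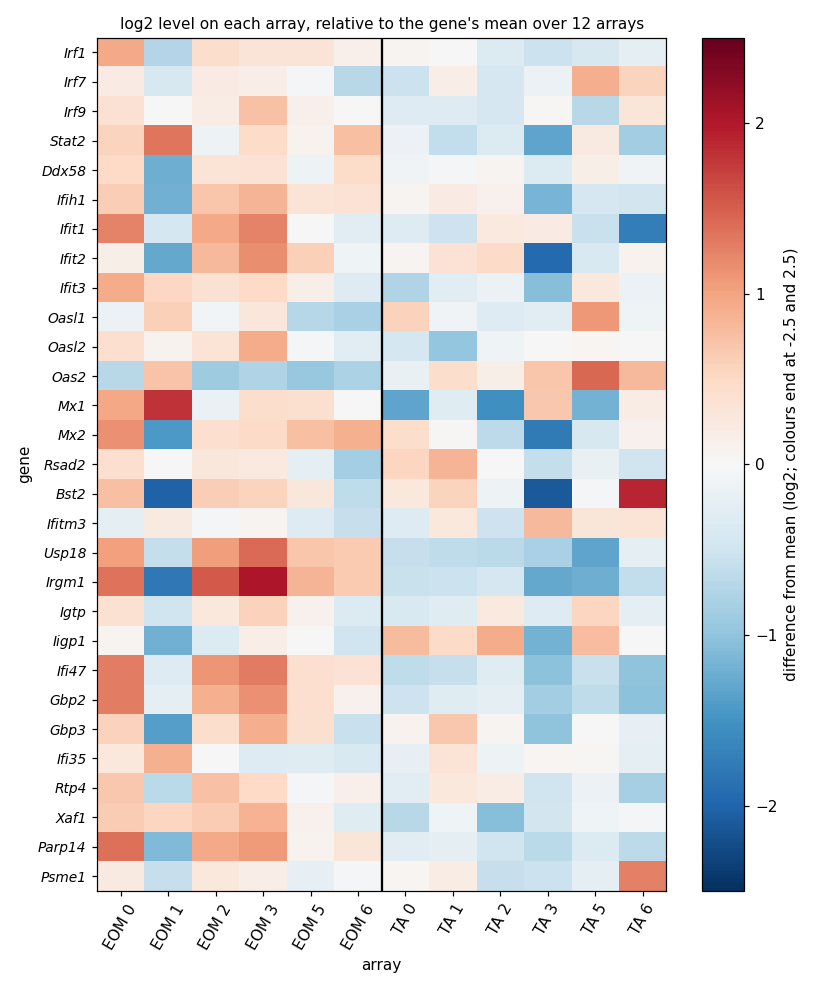
Log2 level of each gene (rows) on each array (columns) relative to that gene's mean over 12 arrays, red above and blue below the mean, EOM left of the line and TA right. EOM 0, EOM 2 and EOM 3 are red in most rows, with array means of 0.60, 0.41 and 0.61, and EOM 1 and TA 3 are blue in many rows, with -0.36 and -0.60.

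No interferon gene that was tested passed, nor did the receptor chains below. Of 19 interferon genes listed, 10 had a probe set of their own and 5 were tested, so most could not be called. Of the 5 tested, 0 were called and 0 had an unadjusted p under 0.05 (limma). Ifnb1, interferon beta, was at 26.7, 35.3 and 103 in EOM, against 24.2, 40.5 and 85.2 in TA, and Ifng, interferon gamma, at 44.3, 58.8 and 318 in EOM, against 63.7, 122 and 189 in TA. Both had their highest EOM signal on EOM 1, and the groups overlapped, though for Ifng 4 EOM arrays lay below every TA array. The log2 fold change of Ifng was -0.42 (limma adjusted p = 0.665), and -0.76 without EOM 1 (limma adjusted p = 0.107). For Ifnb1 it was -0.03 (limma adjusted p = 0.983), and -0.24 without EOM 1 (limma adjusted p = 0.664).

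The receptor chains overlapped between the groups as well, and 0 of 4 passed (limma, 0 at an unadjusted p under 0.05). Ifnar1 was at 232, 424 and 506 in EOM, against 171, 493 and 592 in TA (log2 fold change -0.07, 95% confidence interval -0.71 to 0.56). Ifnar2 was at 350.3, 379 and 476 in EOM, against 245, 416 and 559.7 in TA (-0.02, interval -0.53 to 0.49). Ifngr1 was at 248, 492 and 585 in EOM, against 409.6, 598 and 911 in TA (-0.49, interval -1.05 to 0.07). Ifngr2 was at 8.6, 108 and 150.2 in EOM, against 89.2, 115 and 474 in TA (-0.78, interval -1.75 to 0.18).

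Of 23 tested genes for receptors, signalling and upstream sensing, 0 were higher and 1 lower, with unadjusted p under 0.05 for 0 higher and 6 lower (limma). The shares over all genes tested were 4.05% higher and 6.81% lower. Without EOM 1 this list gave 1 higher and 1 lower, against 10% and 10.5% of all genes. The gene that fell with all arrays was Sting1, the adaptor of cytosolic DNA sensing. It was at 49.8, 78.3 and 236 in EOM, against 511, 647 and 849.5 in TA. All 6 EOM arrays lay below all TA arrays. Its log2 fold change was -2.68 ± 0.30 (SE, limma adjusted p = 1.23e-05). A second probe set of Sting1 did not pass, at -0.67 (limma adjusted p = 0.176).

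A further list of interferon-induced genes went both ways. Of 43 tested, 3 were higher and 6 lower in EOM, and the median log2 fold change was 0.15. Over all genes tested, 4.05% were higher and 6.81% lower. Slfn8, of the Schlafen family, was at 215, 327 and 1042 in EOM, against 66.3, 114 and 146 in TA (1.72 ± 0.34, SE, limma adjusted p = 0.00287). Gbp6, a guanylate-binding protein, was at 830.2, 1659 and 2667 in EOM, against 421, 659 and 786 in TA (1.39 ± 0.28, SE, limma adjusted p = 0.00316). In both genes the 6 EOM arrays lay above all TA arrays. Zbp1, a sensor of Z-form nucleic acids, was the third gene that rose, at 1.38 ± 0.38 (SE, limma adjusted p = 0.0303). Its signals were low, at 37, 85.6 and 119.6 in EOM, against 2.2, 22.9 and 50.3 in TA.

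Among the genes that fell on that list was the T cell and macrophage chemokine Ccl5, at 81.5, 264 and 762 in EOM, against 543, 1011 and 3588 in TA (log2 fold change -2.22 ± 0.52, SE, limma adjusted p = 0.0101). Ifitm1, a relative of Ifitm3, fell too (-1.77, limma adjusted p = 0.000262), as did Slfn5, of the Schlafen family (-1.50, limma adjusted p = 0.00512), whose 2 other tested probe sets were at -0.15 and -0.01. Without EOM 1 the list gave 10 higher and 7 lower, where 10% of all genes tested were higher and 10.5% lower.

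Markers of other cell types moved with the groups. Beside the counts below, 4.05% of all genes tested were higher in EOM and 6.81% lower. In bulk samples, fewer cells of a type and less RNA per cell cannot be told apart. The sums below add linear signals, so the brightest markers weigh most and a sum does not give the level of a whole list. Of 10 leukocyte and lymphocyte markers tested, 8 were lower in EOM and 0 higher (limma, unadjusted p under 0.05 for 9 lower and 0 higher), and their summed signal was 453 to 4599 in EOM and 4871 to 10798 in TA. For macrophages 6 of 13 were lower and 0 higher (unadjusted 9 and 0), with sums of 389 to 4615 in EOM and 1865 to 16813 in TA. Endothelial markers gave 15 lower and 0 higher of 18 (unadjusted 16 and 0), with sums of 3287 to 5379 in EOM and 21996 to 56573 in TA. Fibroblast markers gave 7 higher and 0 lower of 11 (unadjusted 8 and 0), with sums of 108024 to 205649 in EOM and 53513 to 91280.4 in TA. Pericyte and smooth muscle markers gave 7 lower and 0 higher of 8 (unadjusted 7 and 0), with sums of 3261 to 5909 in EOM and 15361 to 31204 in TA. Myogenic markers gave 1 lower and 0 higher of 6 (unadjusted 2 and 0), with sums of 148 to 879.9 in EOM and 287 to 1065 in TA. Plasmacytoid dendritic cells, known for making type I interferon, had 2 of 5 markers tested and 0 calls (unadjusted 0). Of the 17 macrophage, 12 leukocyte and 5 plasmacytoid markers with a probe set, 0 were listed at 0 on any array. The same held for every other marker list, so it does not show that a marker was detected. Abcg2, a transporter that exports the dye, was at 100.3, 716 and 1014 in EOM, against 1705, 2724 and 3461 in TA (log2 fold change -2.23, limma adjusted p = 0.00206). The satellite cell genes Pax7 and Myf5 were below the level at which probe sets were tested.

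Within EOM, the array levels of the leukocyte and macrophage markers can be set beside those of the interferon response genes. On EOM 0 and EOM 3, with the highest means of the 29 genes, the mean log2 level was -1.82 and -0.76 for leukocyte markers and -1.70 and -1.03 for macrophage markers. On EOM 5, with the highest leukocyte level (0.22) and macrophage level (0.22) of the EOM arrays, the 29 genes averaged 0.11. EOM 6 had a leukocyte level of -0.98, a macrophage level of -0.88 and a mean of -0.09 for the 29 genes. On EOM 2 these 3 levels were -1.64, -0.98 and 0.41, and on EOM 1 they were -0.45, -0.72 and -0.36. The part of these cells in the differences between EOM and TA was not tested.

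**Figure D4:**
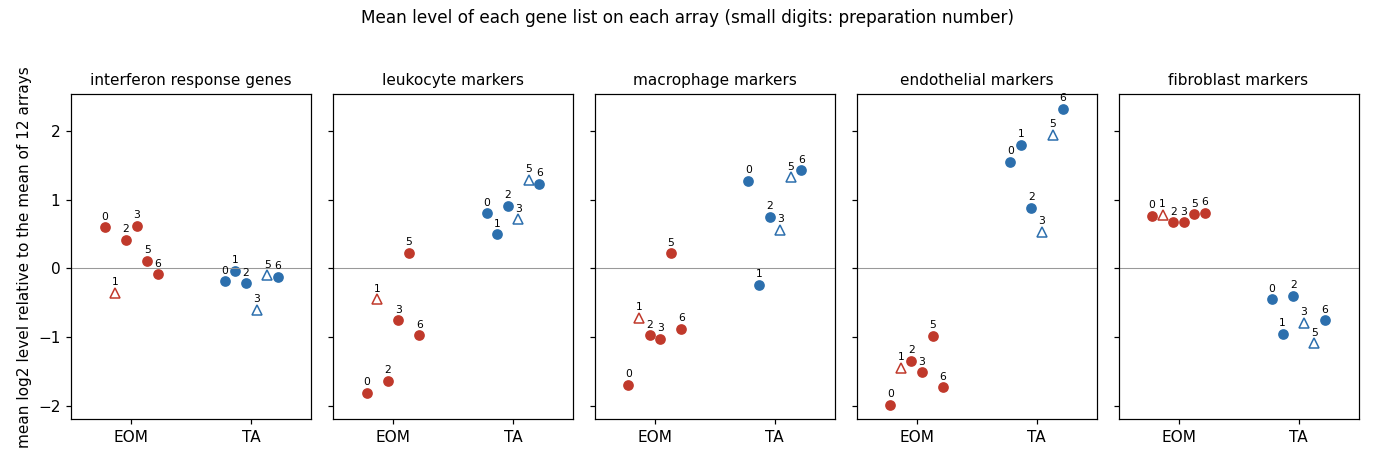
Mean log2 level of the interferon response genes and of 4 marker lists on each array, relative to the mean of 12 arrays, with the preparation number beside each point. Triangles mark EOM 1, TA 3 and TA 5. Leukocyte and endothelial markers lie lower in every EOM array than in every TA array and fibroblast markers higher, while the interferon response genes overlap, from -0.36 to 0.61 in EOM and from -0.60 to -0.04 in TA.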

How the data were processed

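RNA of side population cells was amplified in 2 rounds, labelled and hybridized to Affymetrix mouse arrays, 1 per preparation, per the labels' protocols. The deposited values are linear signal intensity values, summarized with MAS5 per the submitters' processing notes. All columns share a trimmed mean of 150 (2% off either end), as scaling of whole arrays gives. No 2 columns were identical, 0 were unused, and array dates are not given in the sources used here.

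Of 45101 probe sets, 64 were controls; 34945 had 1 gene symbol in the platform annotation, 932 several and 9160 none, and only the first kind was named. Signals were transformed to log2(signal + 16), which understates changes of low signals. Probe sets in the lowest 40% by mean were not tested. The other 27022 were fitted with limma 3.58.1 in R 4.3.3 (two-sided, intensity trend, empirical Bayes), adjusted by Benjamini-Hochberg at 0.05, and the fit was tested on simulated data. Where a gene had several, its brightest probe set on average stands for it (13067 genes). All adjusted p-values come from limma. The labels state independent preparations but not whether they came from separate animals, so p-values measure the spread between preparations.

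The members, the other lists, the marker lists and the alternatives were chosen with earlier results of these data known. All members are named. Of the other lists the named genes are those past the threshold, at most 6 per list by size, plus Ifnb1, Ifng and the interferon receptors; 1 further item is not reported here, and marker lists are given as counts. Abcg2, Pax7, Myf5, Cxcl10, Irgm2, Parp9 and Ifi203 fall outside that rule and were chosen after their values were seen. Alternatives were the added constant, normalization, the filter, the intensity trend, array weights, the replicate block, averaging the probe sets of each gene, and leaving out arrays. The labels do not say what same-numbered EOM and TA arrays share, so the numbers were not used as pairs. These arrays did not deviate together (correlations of -0.317 to 0.157). Promoter sequences come from RefSeq (GRCm38.p6); the build behind the array is not given in the sources used here.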

Additional observations from a re-analysis of the deposited data

Results flagged for a closer look

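In 58 groups of 6 arrays (29 genes in EOM and TA), 6 had 1 array far from the other 5. The rule was Dixon's ratio on log2 values, the gap to the nearest array over the range of the group. For independent groups chance gives about 1 in 20. These groups share the same arrays, so that rate cannot show an excess in these genes. The share flagged over all genes is not given here. Over all genes tested, EOM 1 was the lowest EOM array in 36.8% and the highest in 42.8%. EOM 1 was the distant array in 5 of the 6 flagged groups. It was the lowest EOM array for Ifih1, at 644 against 1883 to 2704 on the others, and for Irgm1, at 192 against 1113 to 2873. It was also lowest for Ddx58, at 135 against 304 to 481, and for Mx2, at 32.9 against 161 to 276. For Oas2 EOM 1 was the highest, at 228 against 61.5 to 76.9 on the other EOM arrays. The sixth was Ifit2 on TA 3, at 157 against 498 to 914 on the other TA arrays. EOM 1 and TA 3 were also the arrays with the highest median signals, 87.2 and 69.6; the cause was not tested.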

How the results depend on the processing

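The median log2 fold change of the 29 genes stayed above 0 in all 23 alternatives, and was 0.38 to 0.62 with 1 array left out. The count of genes higher in EOM was 3 to 10 with 1 array left out, the 10 without EOM 1; it was 14 with array weights, 11 without EOM 1, TA 3 and TA 5, and 0 with median centring (limma; 8 at an unadjusted p under 0.05). The count lower was 0 to 1 with 1 array left out, 2 with array weights and without those 3 arrays, and 0 with an added constant of 64, quantile normalization, no filter, no intensity trend or the replicate block (limma; 1 at an unadjusted p under 0.05 in each, and 2 with quantile normalization). Of all genes, 341 to 1307 were higher and 667 to 1368 lower with 1 array left out, 328 and 576 with median centring, 1566 and 1698 with array weights, and 1387 and 1466 without the 3 arrays. The replicate block kept 3 genes higher. Only 2 of 6 same-numbered pairs had a correlation above 0.1, and 1 of 6 EOM arrays correlated best with its own number. Of 666 fits of single members, 593 kept direction and side of the threshold, 19 lost a call, 34 gained one and 20 changed sign, none of these with a call. With 1 array left out the estimates spanned 0 for Ifi35 (-0.13 to 0.12), Rsad2 (-0.16 to 0.13), Psme1 (-0.18 to 0.19), Bst2 (-0.59 to 0.24) and Gbp3 (-0.059 to 0.42). Signs also changed with quantile normalization for Ddx58 (-0.031) and Ifi35 (-0.055), with median centring for Rsad2 (0.059) and Psme1 (0.032), with array weights for Ifi35 (-0.11) and Irf7 (0.046), and without the 3 arrays for Ifi35 (-0.10) and Irf7 (0.025). Median centring also moved the mean level of the 29 genes to -1.16 on EOM 1 and -1.13 on TA 3. The causes were not tested. Ifnb1 had signals near the array medians, and Zbp1 signals in TA were 50.3 or less. Mx1 was at 5, 2.2 and 7.1 on TA 0, TA 2 and TA 5, far below the medians of these arrays (35.1, 43.4 and 63.2). How far background limits the differences of these genes was not tested.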

Other observations

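Some interferon-induced genes outside the chosen 31 did not pass with all arrays and passed without EOM 1. Calls rose over all genes too: without EOM 1, 10% were higher and 10.5% lower, against 4.05% and 6.81% with all arrays. Ifi203, of the further list above, newly passed as lower in EOM. It was at -0.47 with all arrays (limma adjusted p = 0.640) and at -0.89 without EOM 1 (limma adjusted p = 0.0371). Cxcl10, a chemokine that interferon gamma induces, was at 593, 4308 and 5212.5 in EOM (lowest, median and highest), against 1051, 1618 and 1922 in TA. EOM 1 gave the 593, and the other EOM arrays, at 3279.5 or more, lay above every TA array. Cxcl10 had a log2 fold change of 1.08 with all arrays (limma adjusted p = 0.157) and of 1.55 without EOM 1 (limma adjusted p = 6.07e-05). Irgm2, the third regulatory GTPase beside Irgm1 and Igtp, was at 1.13 (limma adjusted p = 0.175) and at 1.60 without EOM 1 (limma adjusted p = 0.000824). Parp9, a relative of Parp14, was at 1.02 (limma adjusted p = 0.143) and at 1.44 without EOM 1 (limma adjusted p = 0.000275). Cxcl10, Irgm2, Parp9 and Ifi203 were chosen after their values were seen. They are values of single probe sets, with no test of the group they form.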
